A study of Homo sapiens with 6 samples.

Results

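The cells described are H1299 cells infected with a lentivirus carrying a scramble short hairpin RNA (shRNA), the control group of a knockdown study. They were selected by their labels, which gave 2 of the 6 arrays of the series. H1299 is an established line of human non-small-cell lung cancer and has no p53. The other 4 arrays came from H1299 cells carrying either of 2 shRNAs against RBP2 (RBP2 KD1 and RBP2 KD2), and no comparison with them was made here. RBP2, now called KDM5A, removes methyl groups from histone H3 at lysine 4 and was found as a binding partner of the retinoblastoma protein. All groups were kept in RPMI medium with 10% fetal calf serum and harvested 72 hours after infection, so the control cells carried lentivirus too. Total RNA was extracted with Trizol, and 250 ng of it was turned into biotinylated cRNA for Affymetrix arrays. The source is a single line in culture, and the labels do not say whether the 2 replicates were separate cultures, so the spread between them may be technical. The precision is limited by their number, and no test was run.

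Non-small-cell lung cancers arise from the epithelium of the airways and alveoli. An epithelial cell is held to its neighbours by E-cadherin and by tight and desmosomal junctions, and its skeleton is built from keratins. A mesenchymal cell uses N-cadherin and vimentin, and transcription repressors of the ZEB, SNAI and TWIST families shut off epithelial genes when a cell passes from the first state to the second. A dividing cell switches on DNA replication genes through E2F factors once cyclin-dependent kinases have inactivated the retinoblastoma protein. The genes of mitosis follow later in the cycle.

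The values were log2 levels made with GCRMA, which estimates the background of each probe from its sequence, brings the arrays to one scale and joins the probes of a set into a single value. Dim probe sets end up at a floor. A total of 19775 genes had a probe set with a single gene symbol, and each gene was represented by its brightest probe set in the scramble arrays. A gene was counted as expressed when its mean was at least 8, and as at the floor when both arrays held the same value below 8. By these rules 6201 genes, 31.4% of all genes measured, were at 8 or above, and 8032, 40.6% of all, were at the floor. The remaining 5542 genes lay between. The floor rule also takes in tied values higher up: 7535 of the 8032 genes were under 3, and for a named gene tied above 3 the value is given. A gene at the floor under 3 had no measurable level by its probe set, which does not show that it was silent. Ties higher up, 271 genes at 4 or above among them, do not by themselves show an unmeasurable level. Levels of different probe sets were not compared as amounts of RNA, so an order of genes below serves only to pick names. In a culture, fewer cells of a kind and less RNA per cell cannot be told apart.

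The 2 arrays were close to each other. The median difference between them, without sign, was 0.20 among genes at 8 or above, and 226 genes differed by more than 1, with 112 of these higher in replicate 1 and 114 higher in replicate 2. Pearson's r across the 19775 genes was 0.997, a description over genes that are not independent replicates. A mean of 8 was passed on both arrays by 5976 genes, and 460 genes stood at 8 or above on only 1 array. The control probe sets along GAPDH read alike from end to end, with the 3′ probe set minus the 5′ one at -0.09 in replicate 1 and -0.03 in replicate 2. Those along ACTB differed by 1.99 in replicate 1 and 2.37 in replicate 2. KDM5A itself read 9.35 and 9.42 in the control cells, in the order of replicate 1 and replicate 2, which is the order of every pair of values below.

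The 46 lists of genes held 1099 different genes, of which 997 were measured. They were chosen with earlier results of these data known, so their counts describe the cells and carry no test. Across them the counts at 8 or above ran from 0 of 18 immune cell genes to 14 of 15 reference genes, which are genes commonly used as controls of expression.

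**Figure D1:**
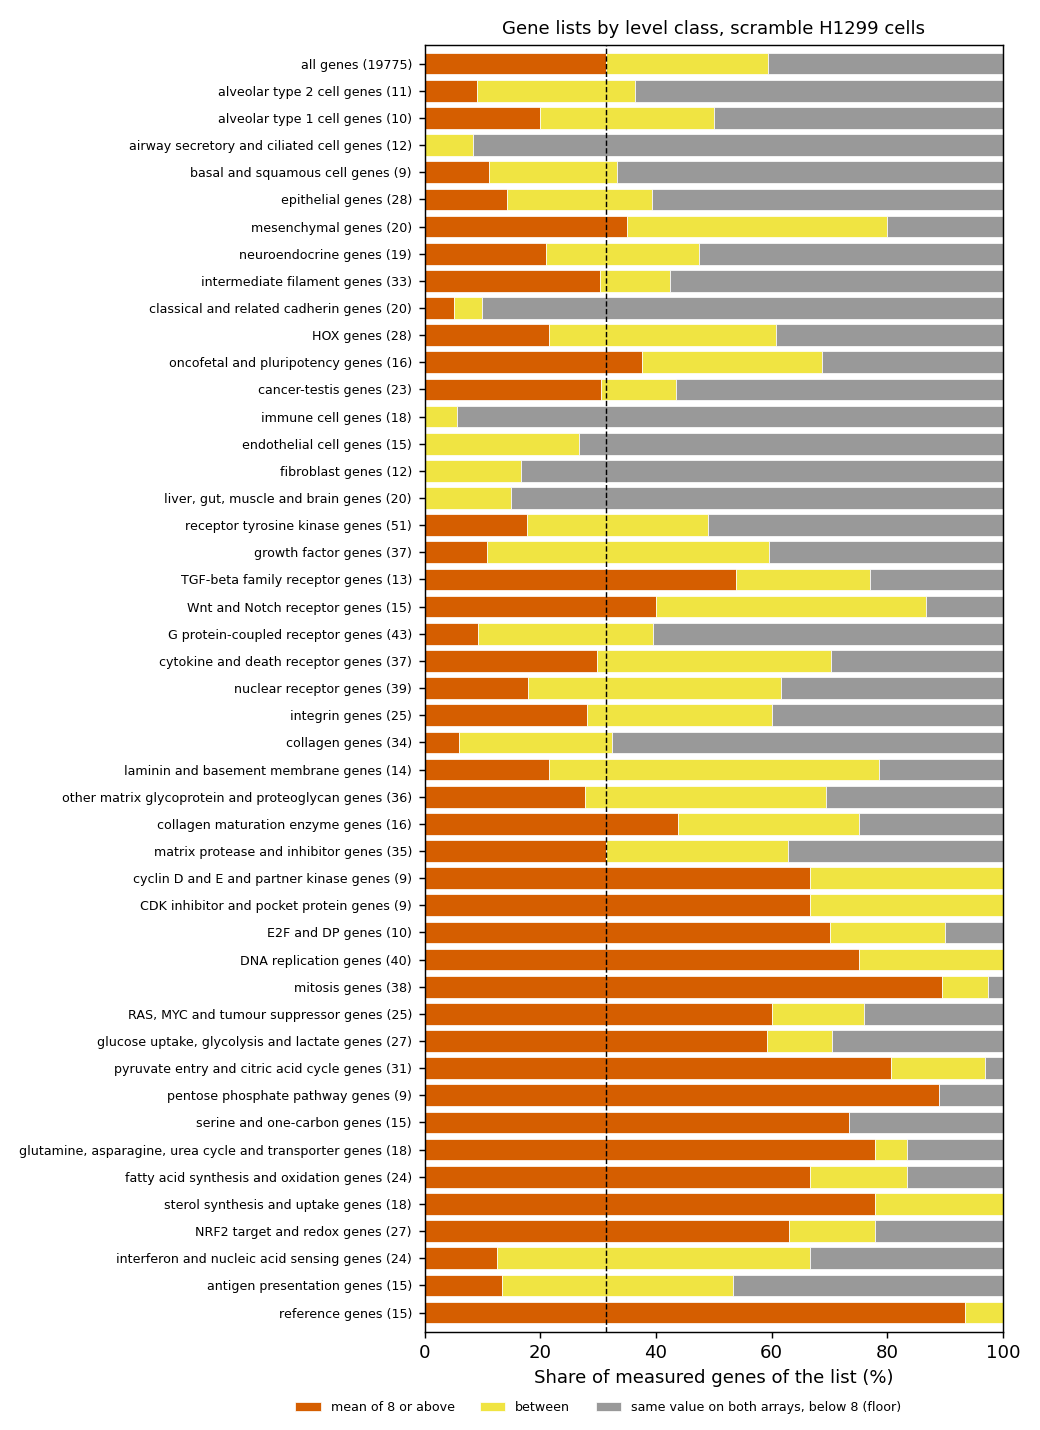
Share of the measured genes of each list (percent, horizontal axis) with a mean log2 level of 8 or above, between, or at the floor in the 2 scramble arrays. The number of measured genes stands in parentheses, the top bar gives all genes, and the dashed line marks the 31.4% of all genes at 8 or above. Lists of mitosis, DNA replication and the citric acid cycle reach beyond the line, and the immune, endothelial and fibroblast lists hold no gene at 8 or above.

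Promoters of the expressed genes were described beside all promoters of the RefSeq table. RefSeq promoters of 300 bases (GRCh38.p14) were found for 5280 of the 6201 genes at 8 or above, or 85.1%. Of these, 90.2% had an observed over expected CpG ratio of at least 0.6, against 49.0% of all 27303 genes with a promoter in the table. Of these 27303 genes 15381 were measured here, so the table also holds many genes with no level. The motif GGGCGG, the core of an Sp1 box, was present on either strand in 72.5% of promoters of genes at 8 or above and in 44.6% of all promoters. CCGGAAGT, an ETS-type motif, was present in 10.9% and 4.44%, and TGACGTCA, the cyclic AMP response element, in 3.84% and 1.98%. TATAAA was present in 4.87% and 12.0%, and CCAAT in 37.9% and 35.7%. CpG-rich promoters also hold more GGGCGG and CCGGAAGT by composition, so these shares are not independent of each other. Promoters were found for 71.6% of genes at the floor and 78.4% of those between, too few for the same description, and no contrast between level classes was made. A match describes letters in this window, not a site in use.

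The 4 sequences below belong to genes that the results turn on and show how widely the number of CG pairs varies. PCNA, the sliding clamp of replication, and VIM, the vimentin filament, were at 8 or above. SFTPB, a surfactant protein of alveolar type 2 cells, and ALB, the serum albumin of liver cells, each held a single value on both arrays. Each line gives the 250 bases before the first listed start of the gene, with CG pairs in capitals. They lie at chr20:5126623-5126872 (minus strand) for PCNA, chr10:17227991-17228240 (plus strand) for VIM, chr2:85668742-85668991 (minus strand) for SFTPB and chr4:73404037-73404286 (plus strand) for ALB, all in GRCh38.p14. CDH1 was also chosen as an example and is named only.
PCNA: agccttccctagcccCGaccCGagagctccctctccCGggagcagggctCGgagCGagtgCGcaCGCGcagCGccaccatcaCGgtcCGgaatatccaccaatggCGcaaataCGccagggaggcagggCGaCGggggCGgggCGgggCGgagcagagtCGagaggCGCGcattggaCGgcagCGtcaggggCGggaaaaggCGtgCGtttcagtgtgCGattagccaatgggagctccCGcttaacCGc
VIM: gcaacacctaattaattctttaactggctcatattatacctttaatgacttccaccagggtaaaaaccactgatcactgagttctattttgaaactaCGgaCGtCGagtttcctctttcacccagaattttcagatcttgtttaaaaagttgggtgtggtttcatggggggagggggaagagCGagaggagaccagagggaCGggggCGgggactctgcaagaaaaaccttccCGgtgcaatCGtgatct
SFTPB: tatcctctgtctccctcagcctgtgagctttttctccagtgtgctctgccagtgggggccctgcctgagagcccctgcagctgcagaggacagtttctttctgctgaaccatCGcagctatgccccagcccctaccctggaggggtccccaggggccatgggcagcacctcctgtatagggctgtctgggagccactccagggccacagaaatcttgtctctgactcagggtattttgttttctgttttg
ALB: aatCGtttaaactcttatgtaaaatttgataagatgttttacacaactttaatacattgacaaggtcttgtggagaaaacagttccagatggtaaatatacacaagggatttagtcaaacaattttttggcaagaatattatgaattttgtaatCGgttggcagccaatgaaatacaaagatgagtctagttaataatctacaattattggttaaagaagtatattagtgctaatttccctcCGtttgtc

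The PCNA stretch held 29 CG pairs, 4 GGGCGG and 3 CCAAT matches. The VIM stretch held 8 CG pairs and 1 GGGCGG match. Over the 300 bases the CpG ratio was 0.970 for PCNA and 0.584 for VIM, so VIM lay just under the threshold of 0.6 although its level was above 8. SFTPB had 1 CG pair and a ratio of 0.044, ALB had 3 and a ratio of 0.481, and ALB had 2 CCAAT matches. None of the 4 stretches held TATAAA. Among lists with enough matched promoters, 31 of 31 genes of mitosis and 33 of 35 DNA replication genes were CpG-rich, as were 16 of 16 genes of sterol synthesis. So were 21 of 37 G protein-coupled receptor genes (56.8%) and 14 of 25 glycolysis genes (56.0%), shares closer to the 49.0% of all promoters.

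The lung lineage was largely at the floor. Of 11 genes of alveolar type 2 cells, which make surfactant, 1 was at 8 or above and 7 were at the floor. NKX2-1, the transcription factor that specifies lung epithelium, read 2.82 on both arrays, and SFTPD, NAPSA, FOXA1 and FOXA2 read 2.24. SFTPC stood at 2.34 and 2.32, and SFTPB was tied at 4.96. The type 2 list was carried above 8 only by ETV5, an ETS factor found in many cell types, at 9.83 and 10.13. When probe sets were averaged, and without probe sets that can bind several transcripts, the count was 0. Among 10 genes of alveolar type 1 cells, the flat gas-exchange cells, CAV1 read 13.46 and 13.15 and CAV2 12.93 and 12.49. These 2 genes make caveolins, coats of membrane pits that many adherent cells have, while PDPN, AQP5, AQP4 and HOPX, which are closer to the cell type, were at the floor. None of the 12 genes of airway secretory and ciliated cells reached 8, and 11 were at the floor. They included SCGB1A1, the club cell secretoglobin, at 2.24 and MUC5AC, a mucin, tied at 4.73. In the list of basal and squamous cells, S100A2 was at 8.19 and 8.21, and KRT5, KRT14 and DSG3 were among 6 of 9 at the floor. Thus few defining markers of the labelled lung origin had a measurable level.

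Most genes of the epithelial list were at the floor. Of 28 epithelial genes, 4 were at 8 or above, 7 lay between and 17 were at the floor, or 60.7% against 40.6% of all genes. CDH1, which makes E-cadherin, read 2.24 on both arrays. The regulators that maintain the epithelial state read low as well: of ESRP1, a splicing factor, the GRHL and OVOL factors and ELF3, 7 genes in all, 5 were at the floor and none reached 8. GRHL1 was the highest of them at 6.56 and 5.50. CLDN3, CLDN4 and CLDN7, the claudins of tight junctions, were all at the floor under 3. The 4 genes above 8, which went the other way, were keratins and junction genes. KRT18 read 12.94 and 12.76 and its partner KRT8 9.87 and 9.80, the pair of simple keratins. TJP1, the junction scaffold ZO-1, was at 11.87 and 12.10, and OCLN, occludin, at 10.07 and 9.98. Without probe sets that can bind several transcripts, 2 of 20 genes were at 8 or above.

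The cadherin family gave the plainest pattern. Of 20 cadherin genes measured, CDH2 alone was at 8 or above, at 9.32 and 9.51, and 18 were at the floor. CDH2 makes N-cadherin. Its second probe set read 5.92, and when probe sets were averaged no cadherin reached 8. CDH24, at a mean under 3, was the other gene that varied between the arrays. The rest of the list, from the placental cadherin CDH3 and the endothelial CDH5 to the osteoblast cadherin CDH11, read one value under 3 on both arrays.

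Mesenchymal genes were divided. Of 20 measured, 7 were at 8 or above, 9 lay between and 4 were at the floor, so the share at 8 or above, 35.0%, was near that of all genes. VIM, vimentin, read 14.94 and 14.95, and its second probe set stood at 6.45. AXL, a receptor kinase often found in mesenchymal tumour cells, read 13.52 and 13.35. The repressors TWIST1 (10.24 and 10.20) and ZEB1 (9.82 and 10.03) were at 8 or above on both arrays, ZEB2 lay just under at 7.60 and 7.70, and SNAI1 was at the floor with SNAI2 under 3. FN1, fibronectin, read 8.63 and 9.56, and LOXL2, a collagen cross-linker, 9.29 and 8.96. ACTA2, the smooth muscle actin, was at 6.06 and 6.31, and TAGLN, CDH11, TNC and FAP, which mark activated fibroblasts, were under 3. Without probe sets that can bind several transcripts 3 of 14 genes were at 8 or above, and when probe sets were averaged 3 of 20 were.

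**Figure D2:**
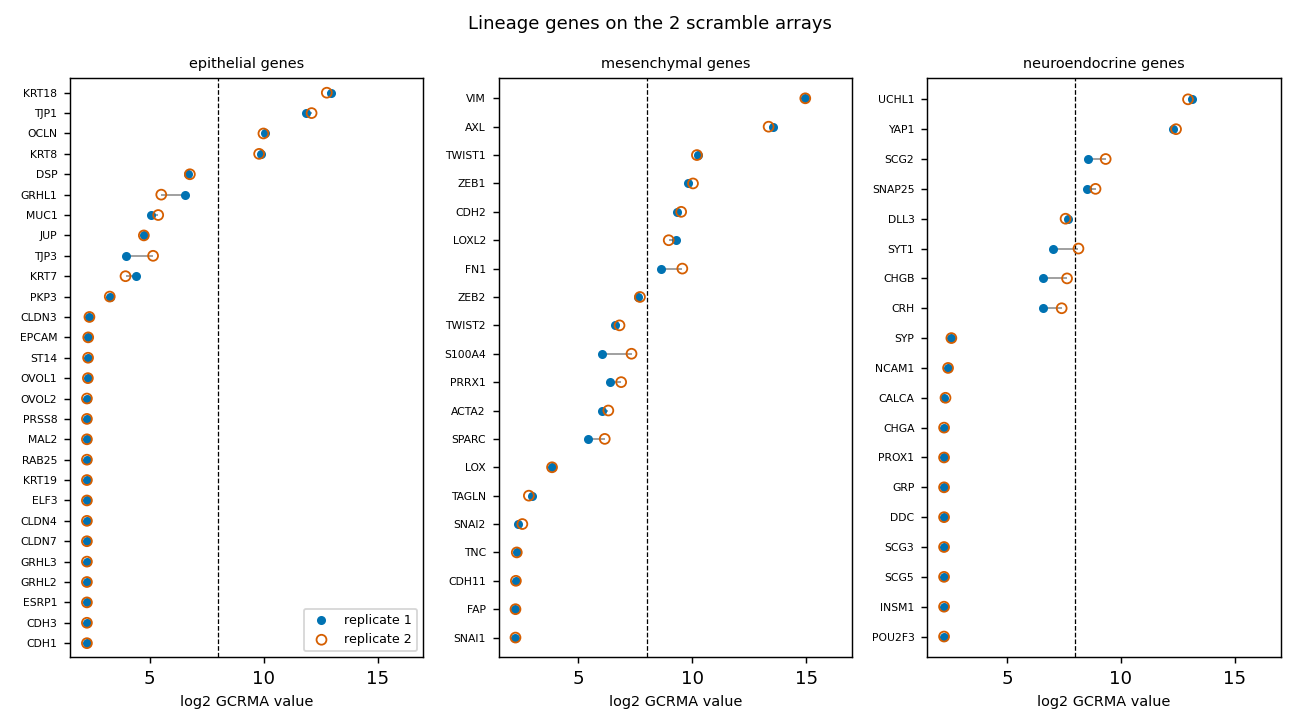
Log2 GCRMA values of epithelial, mesenchymal and neuroendocrine genes on the 2 scramble arrays (filled points replicate 1, open circles replicate 2, lines joining both), ordered by their mean within each panel. The dashed line marks 8. Most epithelial genes, CDH1 among them, sit at the left edge near 2.24, and VIM, AXL, KRT18 and UCHL1 sit far to the right of the line.

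Among intermediate filaments, the rope-like part of the cell skeleton, 10 of 33 genes were at 8 or above (30.3%, near the 31.4% of all genes). At the floor were 19, or 57.6% against 40.6% of all genes. Of 20 keratins, KRT18, KRT8 and KRT10 (9.83 and 9.77) passed 8, and 14 were at the floor, KRT19 and KRT5 among them. The 3 lamins of the nuclear envelope were at 8 or above by their means, with LMNA at 11.45 and 11.62. Neuronal filaments were also present: INA, internexin, read 9.71 and 9.85 and NEFH, the heavy neurofilament, 9.50 and 8.63, whereas NEFL and NEFM were at the floor. Filaments of other tissues, DES of muscle and GFAP of glia, were at the floor too. Without probe sets that can bind several transcripts, 4 of 24 filament genes were at 8 or above.

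Neuroendocrine genes were sought because a class of lung cancers has that lineage. Of 19 measured, 4 were at 8 or above and 10 were at the floor. UCHL1, a ubiquitin hydrolase of neurons, read 13.14 and 12.94, and YAP1, a growth co-activator usually low in neuroendocrine lung cancer, read 12.29 and 12.42. SCG2, a granin of secretory granules, was at 8.56 and 9.33, and SNAP25, a membrane fusion protein, at 8.51 and 8.89. The defining markers CHGA, SYP, NCAM1 and INSM1 were at the floor. DLL3, an inhibitory Notch ligand, lay under the line at 7.68 and 7.57. With a threshold of 9, 2 of 19 were counted, with 7, 7 of 19, and without probe sets that can bind several transcripts, 2 of 16.

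Among genes of the embryo and the germ line, some were at 8 or above and others were at the floor. In the list of oncofetal and pluripotency genes, 6 of 16 were at 8 or above (37.5%, near the 31.4% of all genes). HMGA2, a chromatin architectural protein of the embryo, read 14.05 and 14.35, and HMGA1 11.95 and 12.36. LIN28B, which blocks maturation of let-7 microRNAs, read 12.24 and 11.86, while its relative LIN28A was at the floor. The RNA-binding proteins IGF2BP3 (11.92 and 12.07) and IGF2BP2 (11.30 and 11.56) passed 8, and IGF2BP1 lay at 7.68 and 7.45. The imprinted gene PEG10 was at 11.95 and 12.10. NANOG, the core pluripotency factor, was under 3, and AFP and GPC3 of fetal liver were at the floor.

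Cancer-testis genes, normally active in germ cells, differed by family. Of 23 measured, 7 were at 8 or above (30.4%, near the 31.4% of all genes) and 13 were at the floor. Of 6 measured MAGEA genes 5 were at 8 or above: MAGEA6 read 13.88 and 13.68, MAGEA4 13.38 and 13.55, MAGEA12 12.77 and 12.69, MAGEA1 11.69 and 11.43 and MAGEA10 9.25 and 9.38. MAGEA11 and all 4 MAGEB and MAGEC genes were at the floor. CTAG2, of the NY-ESO group, read 12.19 and 12.45, and PRAME 11.16 and 11.42. SSX1, SSX3, PAGE1, DAZL and BRDT were at the floor. MAGEA genes are near-identical copies, and probes of one can bind another: without probe sets that can bind several transcripts, 3 of 16 genes of the list were at 8 or above.

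HOX genes, which set position along the body axis, were above 8 in few cases. Of 28 measured, 6 were at 8 or above (21.4% against 31.4% of all genes), and the 6 lay in the HOXB and HOXC clusters. At the floor were 11 (39.3%, near the 40.6% of all genes). HOXB2 (12.06 and 12.09), HOXB7 (11.08 and 11.35), HOXB3 (10.61 and 11.08) and HOXB4 (10.37 and 10.51) made up 4 of 10 HOXB genes. HOXC6 read 12.23 and 12.41, and HOXC4, at 7.73 and 8.30, passed 8 on only 1 array, so that 2 of 9 HOXC genes had a mean of 8 or above. None of the 8 HOXD genes reached 8, and 6 were at the floor. In the HOXA cluster only HOXA2, at the floor, was analysed here. HOXB1, at the 3′ end of its cluster, and HOXC11, HOXC12 and HOXC13, at the 5′ end of theirs, were at the floor.

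Markers of other cell types gave little signal. Of 18 immune cell genes none was at 8 or above and 17 were at the floor, among them PTPRC (CD45), CD3D, CD4, CD14 and MS4A1 (CD20). The exception, ITGAM, read 4.27 and 3.17. Of 15 endothelial genes 11 were at the floor, with PECAM1, VWF, CDH5 and TEK under 3 and EGFL7 the highest at 5.38 and 5.88. Of 12 fibroblast genes 10 were at the floor, including PDGFRA, PDGFRB, DCN and LUM, while COL1A1 read 6.20 and 6.40 and FBLN1 6.64 and 6.65. Of 20 genes of liver, gut, muscle and brain, 17 were at the floor, such as ALB, INS, MYOD1 and CDX2. MBP was the highest there, at 7.36 and 7.57.

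Receptor tyrosine kinases carry growth signals across the membrane, and a cell line usually has only a few. Of 51 measured, 9 were at 8 or above and 26 were at the floor, 24 of them under 3. Beside AXL, RYK, a Wnt co-receptor, read 10.67 and 10.91 and MET, the receptor of hepatocyte growth factor, 10.67 and 10.65. The others included EPHA2 (9.46 and 9.40), FGFR1 (9.12 and 9.23) and MERTK (8.58 and 8.74). IGF1R read 8.48 and 8.81, EGFR 8.66 and 8.54, and EPHB4 7.98 and 8.02, at the threshold itself. None of these 9 genes differed by as much as 0.5 between the arrays. With a threshold of 9, 5 of 51 were counted, and when probe sets were averaged 3 of 51 were.

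Within families 1 or a few members were at 8 or above. In the EGFR family EGFR was at 8 or above, ERBB3 read 6.90 and 7.95, ERBB2 was tied at 6.79 and ERBB4 was at the floor under 3. FGFR1 was at 8 or above, FGFR4 read 4.23 and 4.34, and FGFR2 and FGFR3 were under 3. In the TAM family, named for TYRO3, AXL and MERTK, TYRO3 lay at 5.75 and 5.68. Of 13 Eph receptors, which sense ephrins on neighbouring cells, 2 were at 8 or above and 7 were at the floor. EPHA5 was among the genes with the largest difference between the arrays, at 3.26 and 6.01. Oncogenic drivers of other lung cancers, ALK, ROS1 and RET, were at the floor, as were NTRK2 and NTRK3, KIT, FLT3 and CSF1R.

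Growth factors for these receptors were few above 8, with 4 of 37. TGFA, a ligand of EGFR, read 9.17 and 9.47, PDGFC 10.17 and 10.51, VEGFA 9.54 and 10.27 and BDNF 9.74 and 9.99. HGF, the ligand of MET, and EGF and EREG, further ligands of EGFR, were at the floor. GAS6, which binds AXL and MERTK, was tied at 6.23. IGF1 was at the floor beside its receptor. Among receptors for PDGFC and VEGFA, PDGFRA, PDGFRB and KDR were under 3, a set that is not complete. With probe sets averaged per gene, 1 of 37 growth factor genes was at 8 or above.

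Receptors of the TGF-beta family were widely present: 7 of 13 were at 8 or above. TGFBR1, the type I receptor, read 9.65 and 9.77 and TGFBR2, its type II partner, a mean of 9.20 ± 0.28 (SD, n = 2). The co-receptor TGFBR3 read 10.28 and 10.39, ACVR1B 9.47 and 9.53, BMPR2 9.06 and 9.77 and ACVR1 9.05 and 9.56. ENG and ACVRL1 of endothelial cells were at the floor. Among Wnt and Notch receptors, 6 of 15 were at 8 or above, namely NOTCH2 (10.02 and 10.09), FZD6 (9.41 and 9.84), LRP6 (9.34 and 9.66), FZD2 (8.69 and 8.92), FZD7 (8.72 and 8.68) and FZD1 (8.12 and 8.33). NOTCH3 was under 3. For both lists 2 genes passed 8 when probe sets were averaged, and 3 Wnt and Notch receptors passed a threshold of 9.

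G protein-coupled receptors were mostly without a measurable level. Of 43, 4 were at 8 or above and 26 were at the floor. F2R, the thrombin receptor PAR1, read 10.19 and 10.78, ADORA2B, an adenosine receptor, 9.10 and 8.53, LPAR3, a receptor of lysophosphatidic acid, 8.21 and 8.47, and LGR4, a receptor of R-spondins, 8.17 and 8.44. All 7 chemokine receptors of the list, CXCR4 and CCR7 among them, were at the floor. LGR5, a stem cell marker of the gut, was at the floor as well. The count of 4 fell to 1 at a threshold of 9, to 1 when probe sets were averaged and to 2 of 42 without probe sets that can bind several transcripts.

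Of 37 cytokine and death receptors, 11 were at 8 or above (29.7%, near the 31.4% of all genes) and 11 were at the floor. On the average over probe sets, 6 of 37 passed 8. IL6ST, the shared signalling chain gp130, read 12.91 and 12.97, and OSMR, which pairs with it, 10.33 and 10.63. IL13RA2, a decoy receptor of interleukin 13, read 11.55 and 11.82. Both chains of the interferon gamma receptor passed 8, with IFNGR2 at 10.73 and 10.77 and IFNGR1 at 10.33 and 10.56. Among death receptors, TNFRSF1A read 11.08 and 11.61, TNFRSF10B (DR5) 10.57 and 10.79 and TNFRSF10A (DR4) 8.74 and 8.83, while FAS, at 8.09 and 7.73, had a mean under 8. The receptors of lymphoid and myeloid growth factors, 7 genes from IL2RA to CSF3R, were all at the floor under 3.

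Nuclear receptors bind DNA directly when a hormone or lipid binds them. Of 39 measured, 7 were at 8 or above (17.9% against 31.4% of all genes). At the floor were 15 (38.5%, near the 40.6% of all genes). NR3C1, the glucocorticoid receptor, read 10.03 and 10.38, and VDR, the vitamin D receptor, 8.81 and 8.42. The orphan receptors NR2F1 (9.43 and 10.36), NR2C1 (9.40 and 9.73), NR2F6 (9.26 and 9.63) and NR2C2 (9.29 and 9.53) were at 8 or above with RXRB, a partner of many of them, at 8.21 and 8.31. ESR1 and PGR, the receptors of estrogen and progesterone, were at the floor, as was PPARG. RXRA was tied at 4.06. When probe sets were averaged 2 of 39 passed 8, and without probe sets that can bind several transcripts 3 of 32 did.

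**Figure D3:**
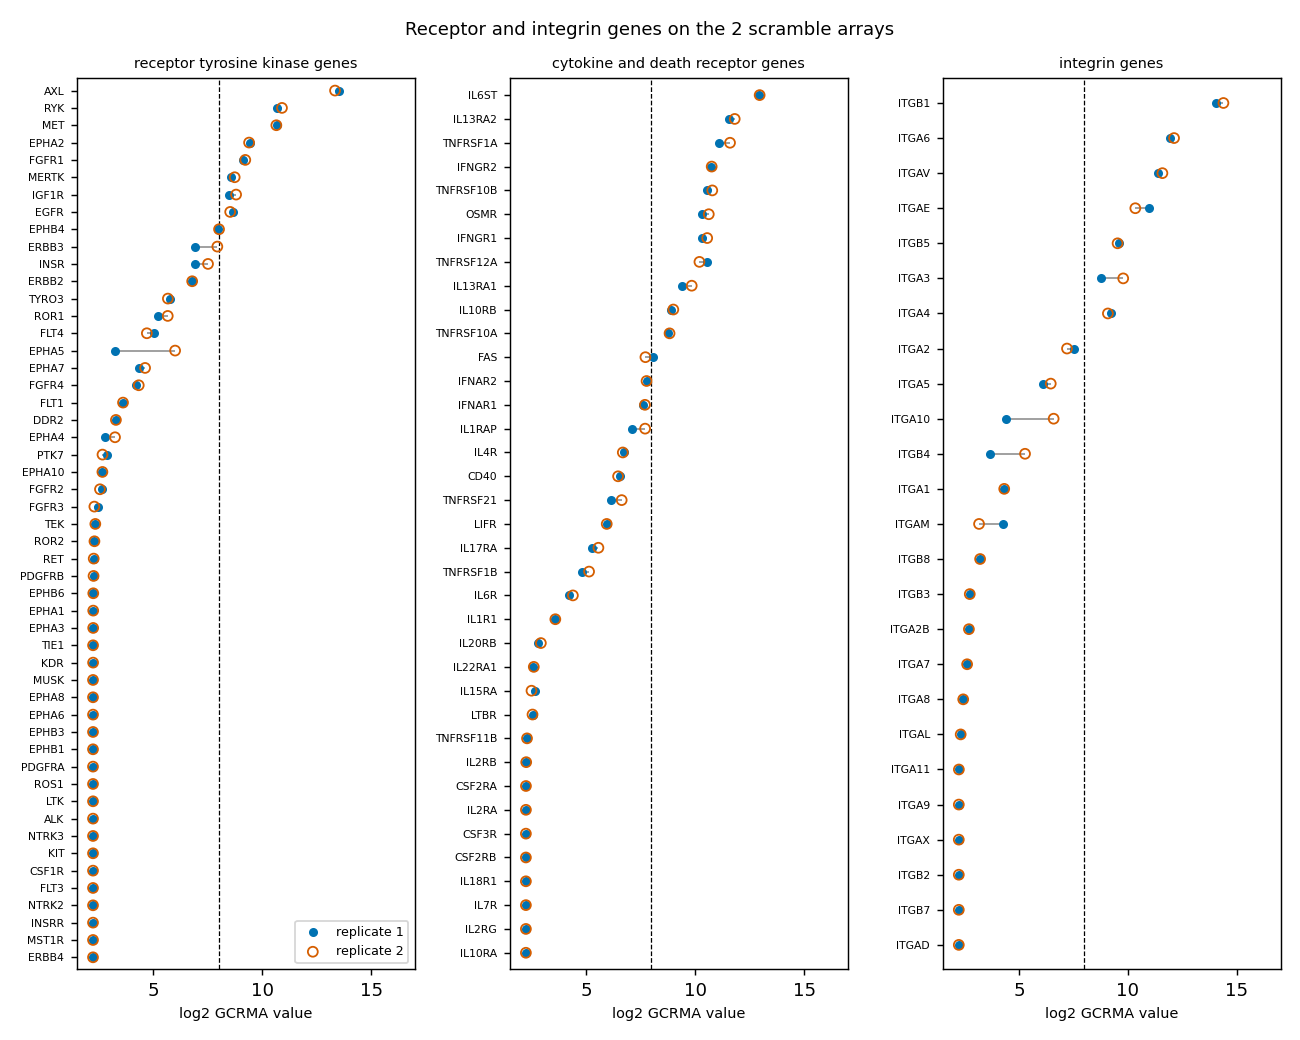
Log2 GCRMA values of receptor tyrosine kinase, cytokine and death receptor, and integrin genes on the 2 scramble arrays (filled points replicate 1, open circles replicate 2), ordered by mean within each panel, with the dashed line at 8. AXL, IL6ST and ITGB1 lead their panels, EPHA5 and ITGA10 show the widest gaps between the arrays, and a block of each list sits near 2.24.

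Integrins are pairs of an alpha and a beta chain that hold cells to the matrix. Of 25 measured, 7 were at 8 or above (28.0%) and 10 were at the floor (40.0%). Both shares were near those of all genes, 31.4% and 40.6%. ITGB1, the beta chain with the most partners, read 14.05 and 14.38. ITGB5 was at 9.60 and 9.53, and the remaining beta chains were under 8. ITGA6 (11.92 and 12.12) and ITGA3 (8.76 and 9.78) form laminin receptors with ITGB1, and ITGAV (11.38 and 11.58) binds vitronectin and fibronectin. ITGA4 read 9.24 and 9.08, and ITGAE, best known from T cells in epithelia, 10.95 and 10.34. ITGA5, the fibronectin receptor chain, lay at 6.10 and 6.46. In a group of 6 leukocyte integrin genes that left out ITGAE and ITGA4, none reached 8. ITGB2, a beta chain of leukocyte integrins, was at the floor. ITGA10 was among the genes with the largest difference between the arrays, at 4.41 and 6.59. With probe sets averaged per gene, 4 of 25 integrins passed 8, and without probe sets that can bind several transcripts 4 of 22 did.

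Matrix genes divided by type. Of 34 collagens, 2 were at 8 or above and 23 were at the floor: COL13A1, a transmembrane collagen, had a mean of 9.15 ± 0.21 (SD, n = 2), and COL6A1 read 8.65 and 8.83. None of 10 fibrillar collagens, the main fibres of connective tissue, reached 8, and COL1A2, COL3A1 and COL5A1 were at the floor. Of the 6 collagens of type IV, the sheet of the basement membrane, COL4A5 was measurable at 6.13 and 6.74 and 5 were at the floor. Without probe sets that can bind several transcripts, and when probe sets were averaged, no collagen was at 8 or above. Of 14 laminin and basement membrane genes 3 were at 8 or above (21.4%): LAMC1 read 10.10 and 10.29, LAMB1 9.81 and 10.26 and LAMA5 8.12 and 9.05, which can pair into one laminin trimer. LAMA1, LAMA4 and LAMB4 were at the floor, and 8 of the 14 lay between. With a threshold of 7, 8 of 14 were counted.

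Among other matrix genes 10 of 36 were at 8 or above (27.8%, near the 31.4% of all genes). CD44, the hyaluronan receptor, read 12.24 and 12.48, CCN1 12.38 and 11.96 and CCN2 10.49 and 9.25. CCN1 and CCN2 are secreted proteins known as targets of YAP1. SPP1, osteopontin, read 9.55 and 10.32, FBN1, the microfibril protein fibrillin, 9.47 and 10.11, and SDC4 9.71 and 9.73. THBS1, thrombospondin, fell on either side of 8 by array, at 8.64 and 7.35. BGN, DCN, LUM and POSTN, made chiefly by fibroblasts, were at the floor. On the average over probe sets, 6 of 36 passed 8.

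The enzymes that build and cut the matrix were counted separately. Of 16 collagen maturation genes, 7 were at 8 or above, including the prolyl hydroxylases P4HB (11.39 and 11.52), P4HA1 (9.01 and 10.35) and P4HA2 (8.26 and 8.59), and the lysyl hydroxylases PLOD2 (10.31 and 10.99) and PLOD3 (9.73 and 9.68). When probe sets were averaged 4 of 16 passed 8, and without probe sets that can bind several transcripts 4 of 12 did. Of 35 proteases and inhibitors, 11 were at 8 or above, the same share as over all genes. ADAM9 read 12.82 and 13.09, ADAM10 11.62 and 11.96, and PLAU, urokinase, 12.17 and 12.41 beside its receptor PLAUR at 11.68 and 11.66. TIMP1 (11.72 and 12.24) and TIMP2 (11.14 and 11.67), which inhibit metalloproteases, were at 8 or above, and TIMP3 and TIMP4 were at the floor. Of 18 matrix metalloproteases only MMP16, at 8.31 and 8.21, passed 8. MMP2 read 3.78 and 3.79 and MMP9 4.32 and 3.77.

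The engine of the cell cycle was present throughout. CDK6 read 12.20 and 11.98, CDK4 11.40 and 11.01 and their partner CCND1, cyclin D1, 11.29 and 11.43. CDK2 was at 10.37 and 9.70, CCND3 at 9.41 and 9.38 and CCNE2, a cyclin E, at 9.84 and 8.67. Thus 6 of 9 genes of this step were at 8 or above and none was at the floor. CDK inhibitors and pocket proteins formed a second list, with 6 of 9 at 8 or above, namely 4 of 6 inhibitors and 2 of 3 pocket proteins. CDKN1B (p27) read 11.72 and 11.81, CDKN2A, the gene of p16 and p14ARF, 11.02 and 11.08, CDKN2B (p15) 9.05 and 9.71 and CDKN1A (p21) 8.36 and 7.84. RB1, the retinoblastoma protein that binds RBP2, read 11.56 and 11.53, and its relative RBL2 10.50 and 11.04. With probe sets averaged per gene, 2 of 9 genes in either list were at 8 or above.

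Of 10 genes of the E2F and DP families, 7 were at 8 or above. The retinoblastoma protein acts through some members of these families, not all. E2F5 read 10.50 and 10.59, E2F3 10.02 and 10.03, E2F7 9.67 and 9.31, E2F6 8.92 and 8.62 and E2F8 8.99 and 8.14. TFDP1, the main DP partner, was at 9.74 and 9.16 and TFDP2 at 8.64 and 8.68. E2F1, the best known activator, read 3.44 on both arrays to 2 decimals, and E2F4 was tied at 3.20. On the average over probe sets, 2 of 10 passed 8, and with a threshold of 9, 4 of 10.

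Most genes of DNA replication and mitosis were at 8 or above. Of 40 replication genes, 30 were at 8 or above, and none was at the floor. Of 38 genes of mitosis, 34 were at 8 or above, and only INCENP was at the floor. RRM2, a subunit of the enzyme that makes deoxynucleotides, read 12.79 and 11.80, and PCNA 12.72 and 11.50. MCM2 to MCM7, the helicase that opens the double helix, were all at 8 or above by their means, from MCM7 at 12.09 and 11.32 to MCM5 at 9.18 and 7.92. ORC1, which marks origins, was low at 5.61 and 4.35, as was GINS4 at 4.79 and 3.03. PTTG1, securin, read 13.04 and 12.17, CCNB1, the mitotic cyclin, 12.43 and 11.50, CDK1 12.14 and 11.56 and AURKA 12.16 and 11.40. The proliferation marker MKI67 was at 9.66 and 8.78 and FOXM1, a driver of mitotic genes, at 9.96 and 8.99. PLK1, the polo kinase, read 4.58 and 3.85 on its single probe set. Without probe sets that can bind several transcripts, 17 of 30 replication genes and 17 of 29 mitosis genes were at 8 or above.

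In both lists nearly all genes differed between the replicates in the same direction. Replicate 1 was higher than replicate 2 for 39 of 40 replication genes, with a median difference of 0.76, and for 37 of 38 genes of mitosis, with a median of 0.77. Among all genes at 8 or above, 50.2% were higher in replicate 1, and the median difference was 0.00152. ORC4 was the exception among replication genes (10.17 and 10.24), and INCENP was tied. The median SD was 0.54 in either list, and 11 replication and 4 mitosis genes differed by more than 1, such as MCM10 (8.55 and 6.84), CDC6 (8.25 and 6.81), SPC25 (10.54 and 9.14) and CDCA8 (9.08 and 7.78). The activator E2F2 read 7.83 and 6.24. TYMS, which makes thymidylate for replication, read 13.60 and 12.60. Some families outside the lists had the same direction. Replicate 1 was higher for 32 of 34 proteasome subunit genes (median difference 0.41) and 71 of 75 mitochondrial ribosomal protein genes (median difference 0.33). Other families did not. Of 59 cytosolic ribosomal protein genes, 41 were higher in replicate 2 and 13 in replicate 1 (median difference -0.03). Of 425 zinc finger genes, 193 were higher in replicate 2 and 154 in replicate 1. Among the lists, the lowest median was that of collagen maturation genes, at -0.27, with 10 of 16 higher in replicate 2 and P4HA1 having the widest gap. The difference between the 3′ and 5′ control probe sets of ACTB, 1.99 and 2.37, moved with the arrays too, and its part in these differences was not tested.

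**Figure D4:**
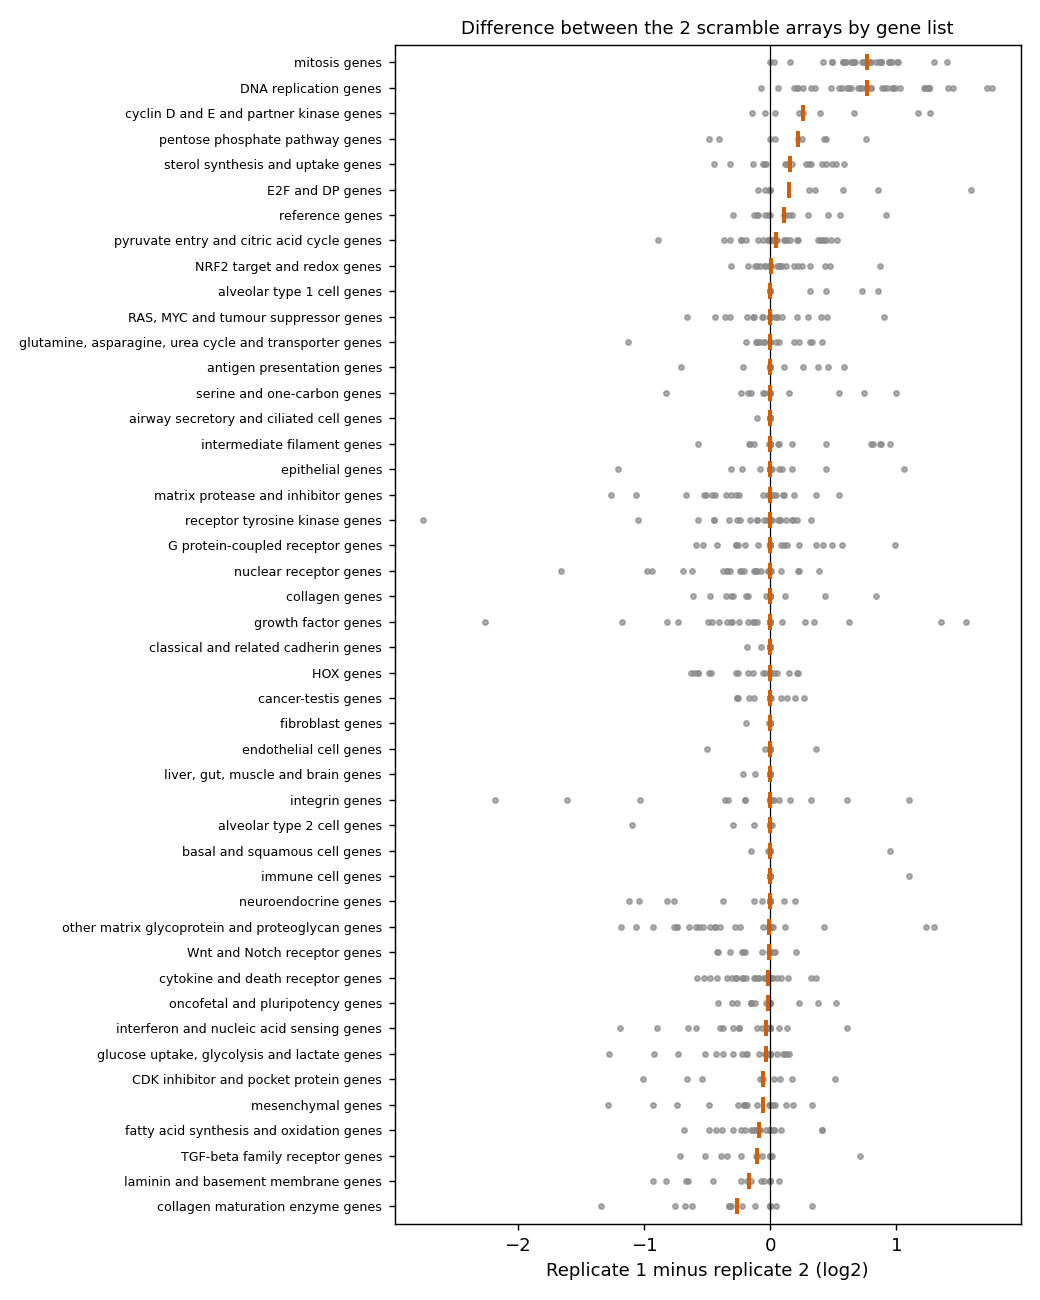
Replicate 1 minus replicate 2 (log2, horizontal axis) for each measured gene of each list in the scramble cells (grey points), with the list's median as an orange bar, ordered by that median. Mitosis and DNA replication genes lie almost wholly to the right of 0, with medians of 0.77 and 0.76, and collagen maturation genes lie farthest to the left, with a median of -0.27.

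The 10 genes with the largest difference between the arrays were all under 8 by their means. THSD7A (2.78 and 5.54), EPHA5, GDF15 (4.84 and 7.10), ITGA10, CAPS2 (4.05 and 6.02), SEMA3E (4.28 and 6.21) and VAT1L (3.24 and 5.14) were higher in replicate 2. GDF15 is a stress-induced growth factor relative of TGF-beta. FAM111B (5.61 and 3.18), LY6K (5.20 and 3.25) and ESCO2 (6.15 and 4.28) were higher in replicate 1. ESCO2 joins sister chromatids during replication.

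Among RAS, MYC and tumour suppressor genes, 15 of 25 were at 8 or above. MYC read 11.39 and 11.08, while its relatives MYCN and MYCL were at the floor. HRAS read 8.78 and 8.38, MAP2K1 9.94 and 9.89 and MAP2K2 9.54 and 9.68. Both MDM2 (9.22 and 9.66) and MDM4 (8.88 and 9.20), which restrain p53 where it is present, were at 8 or above. Of the chromatin remodelling ATPases SMARCA4 read 8.42 and 8.55 and SMARCA2 8.05 and 8.11. STK11 (LKB1) lay at 6.14 and 6.50 and FHIT was at the floor. When probe sets were averaged 5 of 25 were at 8 or above, and with a threshold of 9, 9 of 25.

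Glycolysis showed a clear choice of isoforms. Of 27 genes of glucose uptake, glycolysis and lactate, 16 were at 8 or above and 8 were at the floor, all under 3. GAPDH read 15.18 and 15.22, ENO1, enolase, 14.30 and 14.34, PGK1 14.14 and 14.44, TPI1 13.63 and 13.82 and ALDOA, aldolase, 13.43 and 13.80. Both LDHA (14.17 and 14.20) and LDHB (14.70 and 14.65), the chains of lactate dehydrogenase, were high. Hexokinases HK2 (9.35 and 9.78) and HK1 (9.47 and 9.66) were at 8 or above, and HK3 was at the floor. Isoforms of other tissues, PKLR of liver and red cells, PGAM2 of muscle, LDHC of testis and ALDOC of brain, were at the floor. The glucose transporter SLC2A3 read 9.65 and 10.93, SLC2A1 6.23 and 6.46, and SLC2A2 and SLC2A4, of liver and muscle, were at the floor. Only 16 of the 27 genes had a probe set specific by its name, and 6 of those were at 8 or above.

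The citric acid cycle list had 25 of 31 genes at 8 or above. MDH2, the mitochondrial malate dehydrogenase, read 13.50 and 13.28 and MDH1, the cytosolic form, 12.33 and 11.95. SDHD (11.97 and 11.75) and SDHC (11.74 and 11.70) anchor succinate dehydrogenase, and DLD, a shared subunit of the keto acid dehydrogenases, read 11.77 and 11.64. IDH1 was at 11.45 and 11.82, while IDH2 was tied at 6.51. PC, which feeds the cycle from pyruvate, had a mean under 3. PDK1, which blocks entry of pyruvate, read 8.30 and 9.18, and PDK4 3.37 and 3.22. In the pentose phosphate pathway, 8 of 9 genes were at 8 or above, led by TALDO1 (11.78 and 11.56) and TKT (11.03 and 11.44), and TKTL1 was at the floor. With probe sets averaged per gene, 5 of 9 pentose phosphate genes and 16 of 31 citric acid cycle genes passed 8, and without probe sets that can bind several transcripts 15 of 24 of the latter did.

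By their brightest probe sets, serine and one-carbon genes fell to extremes: 11 of 15 were at 8 or above, 4 were at the floor and none lay between. With probe sets averaged, 8 of 15 were at 8 or above and 3 at the floor. Without probe sets that can bind several transcripts, 9 of 12 were at 8 or above and 2 at the floor. Under either alternative some genes lay between. PSAT1, of serine synthesis, read 13.74 and 13.75, PHGDH, its first enzyme, 9.46 and 9.31, and PSPH, its last, 10.48 and 10.66. The mitochondrial folate enzymes MTHFD2 (13.64 and 13.79) and SHMT2 (11.54 and 11.59) were at 8 or above, and GLDC, which cleaves glycine, read 10.71 and 10.76. The cytosolic SHMT1 and ALDH1L1, the mitochondrial MTHFD1L and the liver enzyme MAT1A were at the floor, whereas MAT2A read 11.80 and 12.03. The cytosolic MTHFD1 was at 8 or above.

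**Figure D5:**
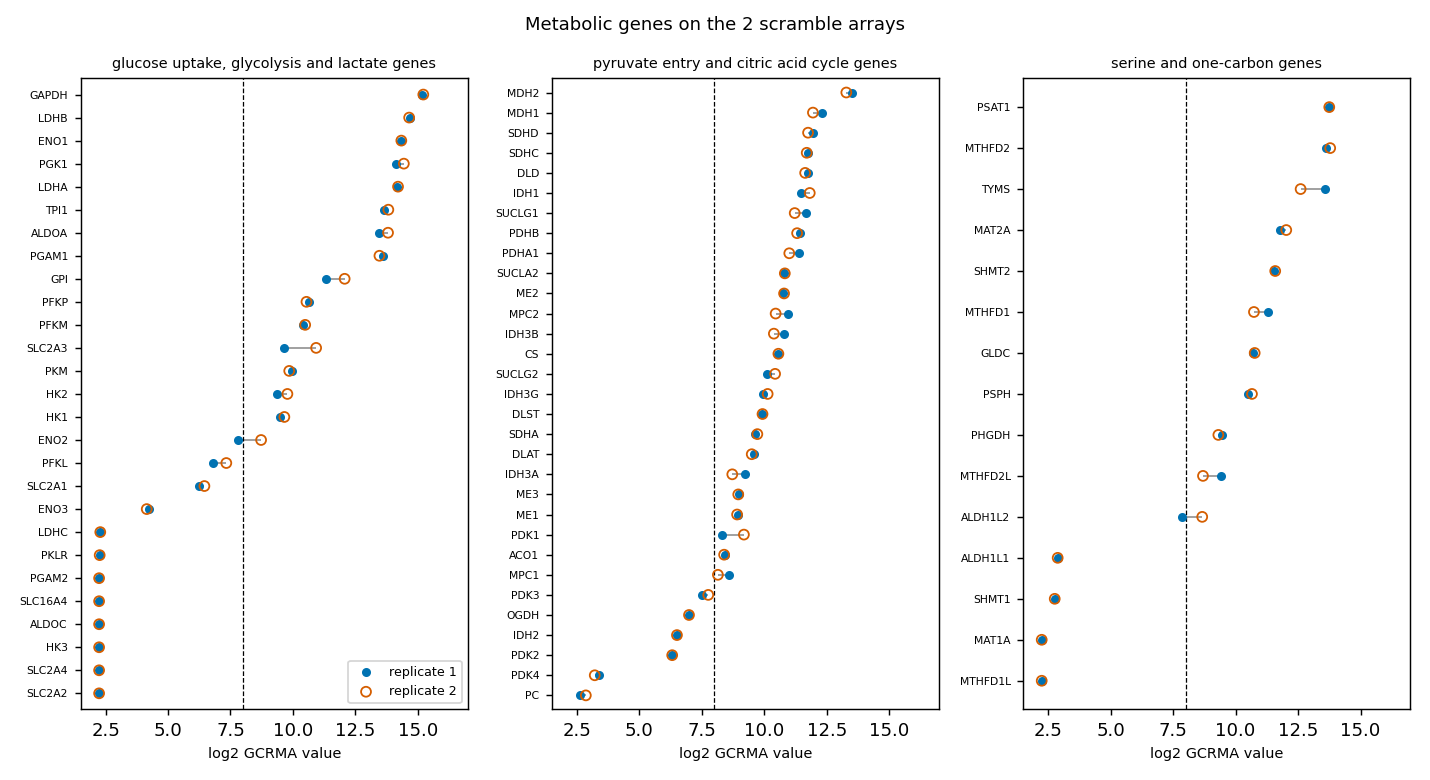
Log2 GCRMA values of glycolysis, citric acid cycle, and serine and one-carbon genes on the 2 scramble arrays (filled points replicate 1, open circles replicate 2), ordered by mean within each panel, with the dashed line at 8. GAPDH and MDH2 lead their panels, PKLR and SHMT1 are among the genes near 2.24, and no serine and one-carbon gene lies between.

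Amino acid supply was similar in shape. Of 18 genes of glutamine, asparagine, the urea cycle and transport, 14 were at 8 or above. The transporters SLC38A2 (14.08 and 14.27), SLC38A1 (13.45 and 13.50) and SLC7A5 (11.63 and 11.22) were among them, with ASNS, asparagine synthetase, at 13.70 and 13.81 and ODC1, which starts polyamine synthesis, at 13.11 and 12.80. CPS1, OTC and ARG1, the urea cycle enzymes of liver, were at the floor, and ASS1, which makes argininosuccinate, read 4.65 and 5.78. Without probe sets that can bind several transcripts 7 of 13 were at 8 or above.

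Lipid synthesis was well represented. Of 24 fatty acid genes, 16 were at 8 or above, with SCD, the desaturase, at 14.17 and 14.47, ELOVL5 at 13.56 and 13.65, ACLY, which makes cytosolic acetyl-CoA, at 11.80 and 11.71 and FASN at 8.94 and 8.52. Genes of fatty acid oxidation were present beside them, such as ACADM (11.84 and 11.81), HADHB (11.75 and 11.84) and CPT1A (9.48 and 9.59), and CPT1C was at the floor. FADS2 was tied at 4.54. Of 18 sterol genes 14 were at 8 or above and none was at the floor. FDPS read 12.45 and 12.04, INSIG1, a sensor of sterols, 11.85 and 11.40, IDI1 11.54 and 11.21 and SQLE 11.09 and 10.97. SREBF1 was at 9.45 and 9.89 and SREBF2, the main sterol regulator, at 7.55 and 7.86. On the average over probe sets, 10 of 24 fatty acid genes and 9 of 18 sterol genes passed 8.

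NRF2 targets and redox genes were mixed. Of 27, 17 were at 8 or above and 6 were at the floor. NFE2L2, which encodes NRF2, read 11.89 and 12.07 and KEAP1, its inhibitor, 9.77 and 9.68. TXN, thioredoxin, read 14.08 and 13.95, PRDX1 13.54 and 13.06, GPX4, which repairs lipid peroxides, 12.79 and 13.10, NQO1 12.00 and 11.93 and TXNRD1 11.74 and 11.31. SLC7A11, the cystine transporter, was at 9.97 and 9.90. The aldo-keto reductases, often raised where NRF2 is active in lung tumours, were low: AKR1B10 and AKR1C3 were at the floor, AKR1C1 read 4.18 and 4.22 and AKR1C2 3.22 and 3.27. HMOX1 read 6.06 and 5.74. When probe sets were averaged 9 of 27 passed 8.

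Genes of innate sensing and antigen display were seldom at 8 or above. Of 24 interferon and nucleic acid sensing genes, 3 were at 8 or above: ISG15 at 10.01 and 10.04, IFIH1 at 8.16 and 8.54 and MAVS at 7.93 and 8.32. Of the interferon-induced genes MX1, MX2, OAS1, OAS2, IFI27 and IFI44 were at the floor, and IFNB1 was too. The sensors RIGI (7.73 and 7.97) and CGAS (7.51 and 7.81) lay just below 8, while STING1 read 4.38 and 5.57. With a threshold of 7, 9 of 24 were counted, with 9, 1, and when probe sets were averaged, 1. Of 15 antigen presentation genes, 2 were at 8 or above, B2M at 13.82 and 13.71 and TAP1 at 9.12 and 8.74. TAP2 (8.19 and 7.74) and PSMB8 (8.01 and 7.75) passed 8 on 1 array, so that without replicate 2 the count was 4. It was 6 at a threshold of 7, 1 at 9 and 0 of 12 without probe sets that can bind several transcripts. CIITA, CD74 and HLA-DRA of class II display were at the floor, and CD274 (PD-L1) had a mean of 2.61.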

How the data were processed

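RNA of H1299 cells was hybridised to Affymetrix arrays, and the 2 arrays labelled scramble were described. The deposited log2 values come from GCRMA, which the submitters' processing notes name. Its version was not given in the sources used here. The log2 scale was taken from the range of the values, which were used unaltered. No detection calls were used. GCRMA leaves dim probe sets at a tied value, and 38.5% and 38.7% of an array's values stood at the lowest value, 2.24.

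Of 54675 probe sets, 62 were controls. The platform annotation gave 1 gene symbol for 41091, several for 1801 and none for 11721, and the last 2 kinds were not named. Of the 13522 probe sets not named, 1205 were at 8 or above. Gene identifiers matched RefSeq (GRCh38.p14) for 41037 probe sets, and 0 symbols changed. Each of 19775 genes took the probe set whose mean was highest in the 2 arrays. Of 4384 genes at 8 or above with several probe sets, 1623 had another one tied under 3, and 735 had all at 8 or above. A gene tied at 8 or above (52 genes) counted as at 8 or above. Values are given per array, and SD is over the 2 arrays (n = 2).

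The members and lists were chosen with earlier results of these data known. Genes were named by rule: per list up to 6 of the highest at 8 or above and up to 6 at the floor, the 20 highest and the 10 largest differences over all genes, and members of families whose pattern is described. Other names, such as KDM5A, MKI67 and PLK1, and the family and subgroup counts were chosen after their values were seen. Some list members had no probe set with a single symbol and are not analysed here. Promoters ran from 250 bases before to 50 after a gene's first listed start, and the CpG ratio is the count of CG times the length over the product of the C and G counts. Alternatives changed the representative probe set, the probe sets used, the threshold, the floor rule and the replicates. The grouping code was tested on simulated data. Python 3.11.15, pandas 2.3.3, numpy 2.4.6 and matplotlib 3.10.9 were used.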

Additional observations from a re-analysis of the deposited data

How the results depend on the processing

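The count of genes at 8 or above, 6201, fell to 3402 when the probe sets of a gene were averaged, and to 4042 of 16788 genes without probe sets named as able to bind several transcripts. It was 6195 with the brightest probe set over all 6 arrays, 7703 at a threshold of 7, 4468 at 9, and 6199 to 6215 when either replicate was left out. The count at the floor, 8032, ranged from 7467 to 8547 over 6 alternatives, of which the tie under 3, at 7535, was chosen after seeing the data. It could not be computed with a replicate left out, since a tie needs both arrays. CpG-rich promoters among genes at 8 or above came to 75.5% at a ratio of 0.75 in place of 0.6, and to 95.3% when any listed start of a gene counted, an alternative chosen after seeing the data. For the lists, 80 of 598 counts differed from the main count by more than 1.5 times: 27 of 92 without probe sets able to bind several transcripts, 25 of 92 when all probe sets were averaged, 10 of 46 at a threshold of 9, 6 of 46 at 7 and 0 of 92 with the brightest probe set over all arrays. Leaving out replicate 1 moved 0 of 46 and leaving out replicate 2 moved 1. Signal over background limits the low end: of 8547 genes with a mean under 3, 7535 were tied.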

Other observations

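Several families outside the lists, chosen after their values were seen, were nearly all at 8 or above. Of 59 genes of cytosolic ribosomal proteins 54 were at 8 or above, as were 71 of 75 mitochondrial ribosomal protein genes, 31 of 34 proteasome subunit genes and all 15 genes of cytosolic aminoacyl-tRNA synthetases. The 20 genes with the highest values included 15 with RPL or RPS symbols, together with EEF1A1 at 15.86 and 15.88, the nuclear noncoding RNA MALAT1 at 15.39 and 15.66, GAPDH, TPT1 at 15.14 and 15.22, and COX2, the mitochondrially encoded cytochrome oxidase subunit, at 15.31 and 15.19. In the ribosome the 5 exceptions included RPL27A at 7.94 and 8.02 and the testis gene RPL10L at 5.97 and 6.90. RPLP2, tied at 4.24, RPL36A, tied at 2.86, and RPL3L, tied at 2.28, made up the rest. These readings rest on probe sets with a single gene symbol and do not show that the transcripts were missing. Of the proteasome, PSMB8 and PSMB9, which replace standard subunits after interferon, were among those under 8.

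None of 82 olfactory receptor genes was at 8 or above and 81 were at the floor. All 34 keratin-associated protein genes and all 14 beta-defensin genes were at the floor. No gene with a CCL or CXCL symbol reached 8, with CCL28 the highest of 34 at 6.17 and 6.40. Of 47 cytochrome P450 genes, CYP1B1 (8.40 and 8.63) and CYP2R1 (8.05 and 8.18) were at 8 or above, and of 85 potassium channel genes KCNMA1 (9.59 and 10.31), KCNN4 (9.16 and 9.96) and KCNQ5 (mean 8.96, SD 0.07) were. Zinc finger genes with ZNF symbols lay mostly between the classes, with 98 of 425 at 8 or above and 77 at the floor. By RefSeq gene type, 36.8% of 16520 protein-coding genes and 2.90% of 2657 long noncoding RNA genes were at 8 or above, and 34.1% and 76.0% were at the floor.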
